A study of Rattus norvegicus with 15 samples.

Results

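The extracellular matrix and integrin genes described here are 42 named genes: collagens, laminins, other matrix glycoproteins and proteoglycans, the syndecans, and the integrin subunits that bind them. They were chosen by symbol, and a member also had to reach a mean expression of log2(10) over all 15 libraries. Expression is given as the rlog value, the regularized log2 expression that the authors computed with DESeq2. Of the 42 genes, 39 were in the symbol column and all 39 reached that level, out of 15424 genes tested and 20375 genes listed. Hspg2, Col6a3 and Itgb5 were not in the symbol column and were not analysed here. The measured values did not enter the choice by symbol, but the list was drawn up with earlier results of these data known.

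RNA was sequenced from whole retinas of Sprague-Dawley rats, labelled Wild type and Post natal week 12, with 3 libraries in each of 5 groups and 15 in all. The NT group was a healthy control without treatment. The sham, MSC, MSCEPO and DPSC groups received sodium iodate (NaIO3), an oxidant that damages the retinal pigment epithelium and then the photoreceptors, systemically at 40 mg/kg. Before NaIO3 the eye was injected into the vitreous with vehicle in sham or with cells in the other groups, and retinas were taken on day 31 after transplantation. MSC stands for mesenchymal stem cells from human Wharton's jelly, and MSCEPO for the same kind of cells carrying a lentiviral human erythropoietin gene. DPSC is the name the labels give to the last cell type, whose source is not given in the sources used here. Rats with xenografts were given dexamethasone (2 mg/kg) and then oral cyclosporin (10 mg/kg/day). No source states immunosuppression for NT or sham, so the cells and the drugs cannot be told apart in a comparison with either. Every group but NT received both an eye injection and NaIO3, so the injection and NaIO3 cannot be told apart in a comparison with NT. The human donor cells remain a limit of the model, because all reads were assigned to the rat transcriptome and a human read that resembles a rat matrix transcript can be counted with it.

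The extracellular matrix of the retina is thin. Basement membranes, which are sheets of laminin and type IV collagen joined by nidogens and heparan sulfate proteoglycans, line its vitreal face, its blood vessels and the pigment epithelium. Müller glia, astrocytes and vascular cells make much of this material. Fibrillar collagens and the small proteoglycans that coat their fibrils are sparse in the neural retina and abundant in vessel walls, optic nerve sheath, choroid and sclera, and in scar tissue. Integrins are paired alpha and beta subunits that anchor cells to these proteins and signal from them.

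The libraries held retina by their markers: 7 photoreceptor markers had a mean rlog of 13.71 to 15.59 over the 15 libraries. Set relative to the NT mean, this list was at -0.82 to -0.66 in sham, -1.50 to -1.44 in MSC, -1.86 to -1.37 in MSCEPO and -1.65 to -0.88 in DPSC. In whole tissue, fewer cells of a type and less RNA per cell cannot be told apart, so every value below is a share of the retina's RNA. Some libraries stood apart. Lens and cornea markers were 11 genes led by the crystallin Cryaa. Their mean was 3.82 and 2.98 above the NT mean in DPSC replicates 1 and 3 and 2.72 in MSCEPO replicate 3. It was -0.81 in DPSC replicate 2, -0.84 in MSCEPO replicate 1 and -1.16 in NT replicate 1. It was 1.20 to 1.84 in sham and 0.15 to 2.06 in MSC. In 8 of the 11, against 16.6% of all genes, every sham library lay above every NT library. The corneal keratins Krt12 and Krt5 were below their NT means (8.33 and 7.45) in DPSC replicates 1 and 3. Krt12 was 7.02 and 6.18 there, and Krt5 6.73 and 5.36. In MSCEPO replicate 3 they were 6.71 and 8.87. The part of lens and cornea RNA in the member values was not tested. Of the 39 members, MSCEPO replicate 3 had the lowest value of its group in 34 (87.2%) and DPSC replicate 3 in 35 (89.7%), against 47.1% and 38.7% of all genes tested. NT replicate 3 had the lowest in 26 members (66.7%, against 41.5% of all genes). The members also varied more inside a group than genes did in general, with a median within-group SD of 0.53 log2 units against 0.195 over all genes tested.

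**Figure D1:**
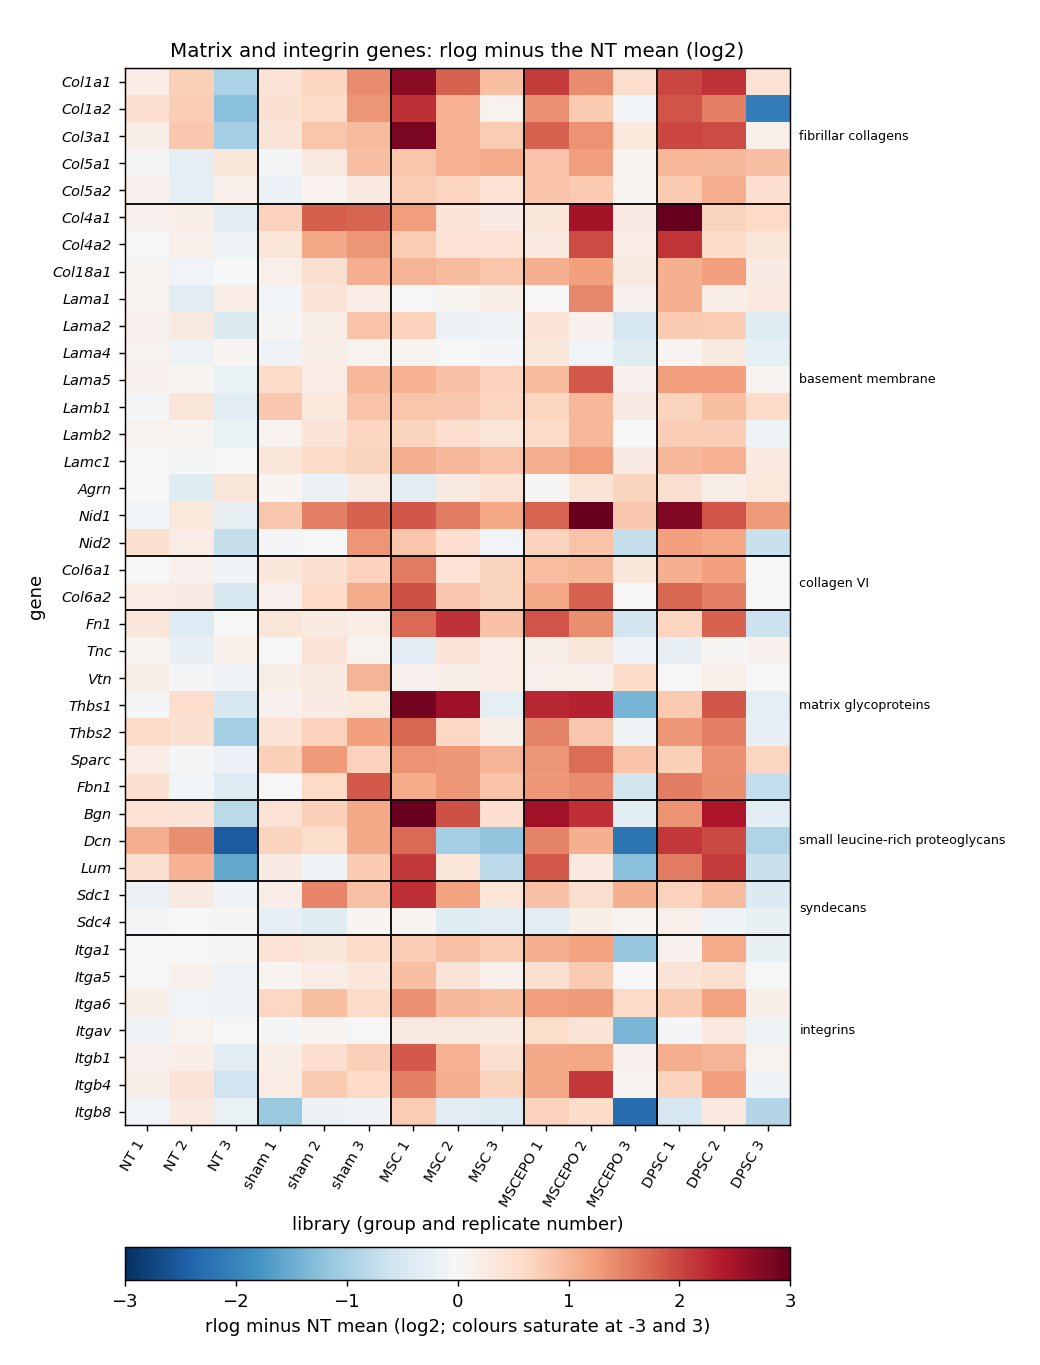
Each row is 1 of the 39 genes, each column 1 of the 15 libraries, and the colour is the rlog value minus the gene's NT mean (log2). Averaged over the genes, the sham, MSC, MSCEPO and DPSC libraries lie 0.22 to 1.23 above NT, except MSCEPO 3 (-0.14) and DPSC 3 (-0.05).

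Sequences are shown for the genes on which the results below turn, so that the promoters can be read beside the expression. A window from 250 bases before to 50 bases after the transcription start was found for 31 of the 42 members in RefSeq (build GRCr8). Col4a1 and Col4a2 are a divergent pair, and 76 bases (chr16:84885521-84885596) separate their starts. These bases are given on the plus strand, along which Col4a1 is read. For Nid1, Lamc1 and Sparc, members that passed the test described below, the 150 bases before the start are given on the gene's own strand (Nid1, chr17:93069136-93069285, plus; Lamc1, chr13:68051987-68052136, minus; Sparc, chr10:40038817-40038966, minus). Capitals mark a match to 1 of the 4 motifs searched on both strands.
Col4a2 to Col4a1: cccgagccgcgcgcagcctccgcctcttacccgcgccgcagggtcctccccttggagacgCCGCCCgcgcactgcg
Nid1: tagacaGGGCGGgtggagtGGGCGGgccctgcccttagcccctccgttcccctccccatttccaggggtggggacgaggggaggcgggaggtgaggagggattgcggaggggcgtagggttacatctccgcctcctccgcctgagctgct
Lamc1: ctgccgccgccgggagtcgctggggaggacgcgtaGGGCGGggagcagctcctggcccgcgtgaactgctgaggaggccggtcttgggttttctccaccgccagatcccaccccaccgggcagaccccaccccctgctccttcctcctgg
Sparc: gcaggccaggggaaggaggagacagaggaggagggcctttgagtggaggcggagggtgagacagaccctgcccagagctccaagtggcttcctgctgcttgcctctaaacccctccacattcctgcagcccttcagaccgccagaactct

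All the capitals are GC boxes (GGGCGG), with 2 in the Nid1 stretch and 0 in that of Sparc. Over the whole windows the GC box was found in 19 of 31 members (61.3%) and in 33.1% of all 33469 promoter windows. The CCAAT box was found in 10 members (32.3%, against 37.5% of all windows), the TATA box (TATAAA) in 3 (9.68%, against 14.2%) and the AP-1 motif (TGANTCA) in 1, Col6a1 (3.23%, against 7.33%). These are matches of letters and do not show that a factor binds.

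Against healthy retina, most matrix genes had higher mean values in every injected group. The log2 difference of sham from NT was above 0 in 37 of 39 members, with a median of 0.49 where the median of all genes tested was 0.00. MSC minus NT was above 0 in 37 members (median 0.84), MSCEPO minus NT in 35 (median 0.72) and DPSC minus NT in 36 (median 0.73), while 49.5% to 51.2% of all genes were above 0 in these comparisons. The 4 comparisons share the NT libraries, so they are not separate evidence. In MSC minus NT the median was 1.11 for the fibrillar collagens, 1.08 for the matrix glycoproteins, 1.01 for collagen VI, 0.79 for the integrins, 0.56 for the small leucine-rich proteoglycans, 0.55 for the basement membrane and 0.52 for the syndecans.

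Single genes passed less often. A gene is called changed here at an adjusted p under 0.05 in a limma fit of all 15 libraries, with Benjamini-Hochberg adjustment over the 15424 genes. In MSC minus NT, 6 members rose and 0 fell (15.4% of the members, where 11% of all genes rose and 6.37% fell). Those 6 were Sparc, Itga6, Lamc1, Lamb1, Col5a1 and Col18a1. In MSCEPO minus NT, 4 rose and 0 fell (10.3%, where 5.83% of all genes rose and 5.81% fell), namely Sparc, Itga6, Lamc1 and Nid1. No member was called in DPSC minus NT, where 1.43% of all genes rose and 1.41% fell. An unadjusted limma p under 0.05 in the higher direction was found for 11 members (28.2%, against 8.91% of all genes). None was called in sham minus NT either, where 0.558% of all genes rose and 0.331% fell. There, 6 members had an unadjusted limma p under 0.05 in the higher direction (15.4%, against 6.29% of all genes). The shares of members that rose in MSC and MSCEPO stand for 6 and 4 genes and were not tested against the background.

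Groups that did not overlap were all in the higher direction among the members. All 3 MSC libraries lay above all 3 NT libraries in 24 of 39 members (61.5%, against 22.9% of all genes). The count was 13 in sham (33.3%, against 16.6%), 9 in MSCEPO (23.1%, against 16.5%) and 10 in DPSC (25.6%, against 16%). No member had groups that did not overlap in the lower direction, which 15.3% of all genes had in sham, 21.2% in MSC, 15% in MSCEPO and 15.7% in DPSC. MSCEPO replicate 3 and DPSC replicate 3 weighed on their groups: without MSCEPO replicate 3, 13 members rose in MSCEPO minus NT rather than 4 (33.3%, with 19.4% of all genes called in either direction rather than 11.6%). Without DPSC replicate 3, 3 members (Lamc1, Nid1 and Itga6) rose in DPSC minus NT rather than 0 (7.69%, with 2.94% of all genes called rather than 2.85%). Leaving out any other library of the MSCEPO or NT group gave 1 or 2 calls in MSCEPO minus NT. This was 2.56% or 5.13% of the members, with 5.19% to 10.2% of all genes called. The MSC count was 3 (7.69%) without NT replicate 1, MSC replicate 1 or MSC replicate 2, with 9.94%, 11.3% and 11.6% of all genes called. In a fit of sham and NT alone, 8 members rose in sham (Col4a1, Col4a2, Lamc1, Nid1, Col6a1, Sparc, Itga1 and Itga6), which is 20.5% of them, where 8.65% of all genes were called. A rule that also asks for a 2-fold difference left Sparc and Itga6 in MSC (5.13%, with 6.7% of all genes called in either direction). It left Sparc, Itga6 and Nid1 in MSCEPO (7.69%, with 3.57% of all genes called in either direction).

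**Figure D2:**
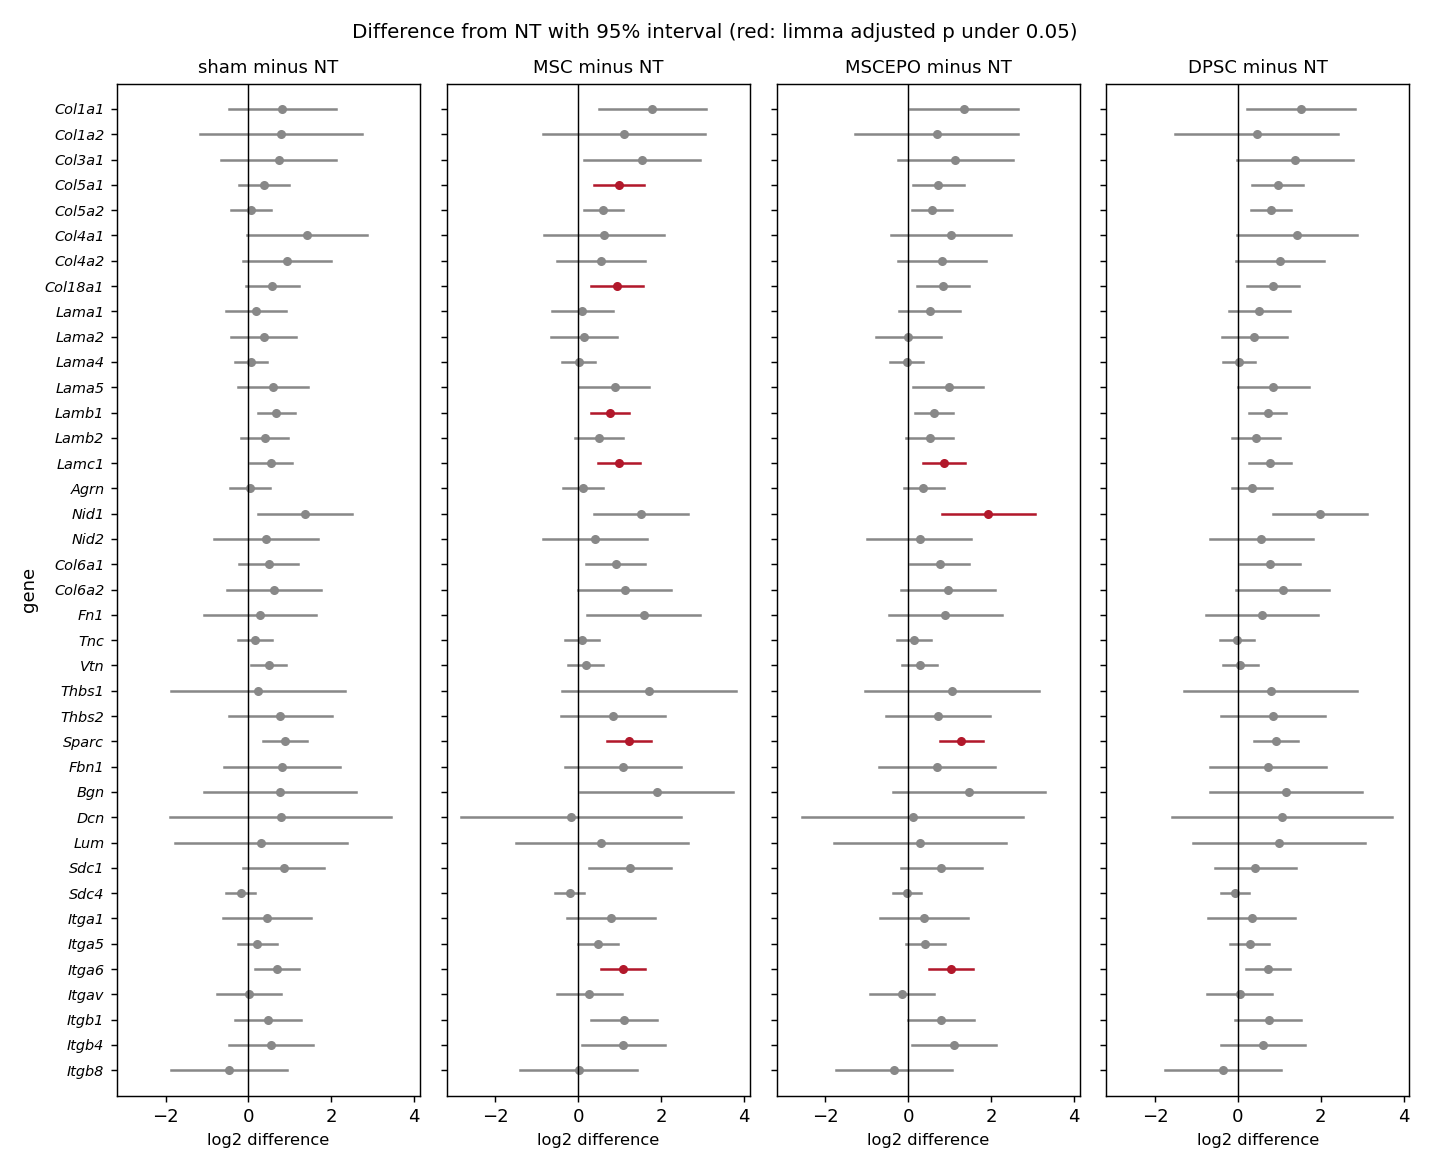
Points are log2 differences of the 39 genes from NT and bars are 95% intervals from the limma fit of 15 libraries. Red genes passed the adjusted p of 0.05: 0 in sham, 6 in MSC, 4 in MSCEPO and 0 in DPSC.

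The basement membrane, with 13 of the 39 measured members, held 4 of the 7 that were called in any comparison. Lamc1, Lamb1 and Col18a1 rose in MSC minus NT, where 11% of all genes rose. Lamc1 and Nid1 rose in MSCEPO minus NT, where 5.83% of all genes rose. The 13 genes encode type IV and XVIII collagens, laminin chains, agrin and nidogens. All 13 had a log2 difference above 0 in sham, MSC and DPSC minus NT. In MSCEPO minus NT 12 did, the exception being Lama4 at -0.03. Of all genes, 49.5% to 51.2% were above 0 in these comparisons. The mean of the 13 genes relative to NT was 0.28, 0.54 and 0.92 in sham replicates 1 to 3, and 0.43 to 0.76 in MSC. It spread further in MSCEPO (0.11 to 1.29) and in DPSC (0.20 to 1.25).

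Nid1 encodes nidogen-1, which links the laminin and type IV collagen networks, and it had the largest difference from NT of any member in MSCEPO and in DPSC. Its rlog values were 8.51, 8.89 and 8.35 in NT replicates 1 to 3, and 9.39, 10.10 and 10.36 in sham. They were 10.44, 10.11 and 9.74 in MSC, 10.33, 11.85 and 9.40 in MSCEPO, and 11.35, 10.47 and 9.87 in DPSC. No library of the 4 injected groups reached down to NT. The log2 difference from NT was 1.94 ± 0.521 (SE, n = 3) in MSCEPO with a limma adjusted p of 0.0303. It was 1.98 ± 0.521 in DPSC (adjusted p = 0.0628), 1.51 in MSC (adjusted p = 0.0647) and 1.37 in sham (adjusted p = 0.288), none of which passed. The MSCEPO call was lost in a fit of the 2 groups alone and without any single library of NT or without MSCEPO replicate 1 or 2, with an adjusted p up to 0.108.

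Lamc1 encodes the gamma-1 chain shared by most laminins. It measured 9.13, 9.08 and 9.11 in NT and 9.48, 9.69 and 9.78 in sham. The values were 10.18, 10.11 and 9.97 in MSC, 10.18, 10.37 and 9.35 in MSCEPO, and 10.10, 10.15 and 9.40 in DPSC. The NT libraries agreed to within 0.05 log2 units, and every other library lay above them. MSC was also above all of sham. Lamc1 rose by 0.98 ± 0.238 (SE) in MSC minus NT (limma adjusted p = 0.0145) and by 0.86 ± 0.238 in MSCEPO minus NT (adjusted p = 0.0344). The adjusted p of the MSC difference stayed under 0.05 in every refit, at up to 0.0496, but the difference falls short of the 2-fold rule. The MSCEPO call was lost in a fit of the 2 groups alone and when any library of the pair other than MSCEPO replicate 3 was left out.

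Lamb1, the beta-1 laminin chain that pairs with gamma-1, had 9.76, 10.14 and 9.46 in NT and 10.63, 10.60 and 10.43 in MSC. In sham it had 10.59, 10.11 and 10.65, in MSCEPO 10.42, 10.78 and 10.03, and in DPSC 10.45, 10.69 and 10.37. The highest NT library reached into the sham and MSCEPO ranges, but not into those of MSC or DPSC. Lamb1 rose in MSC minus NT by 0.77 ± 0.208 (SE, limma adjusted p = 0.0245), a call lost with array weights and without NT replicate 1 or 3 or MSC replicate 1 or 2. The difference was 0.72 in DPSC (adjusted p = 0.0894) and 0.62 in MSCEPO (adjusted p = 0.0726).

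Col18a1 encodes type XVIII collagen, the precursor of endostatin. It measured 9.77, 9.60 and 9.67 in NT, 9.84, 10.15 and 10.78 in sham, and 10.69, 10.63 and 10.51 in MSC. In MSCEPO the values were 10.75, 10.90 and 9.95, and in DPSC 10.74, 10.90 and 9.93. Replicate 3 of MSCEPO and of DPSC sat near NT, yet still above it. Col18a1 rose in MSC minus NT by 0.93 ± 0.292 (SE, limma adjusted p = 0.0456) and lost that call with a replicate block, with no filter, with array weights and without any 1 of the 6 libraries compared, with adjusted p up to 0.122.

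The Col4a1 and Col4a2 genes encode the chains of the main type IV collagen, and their values moved by library more than by group. Col4a1 had 9.32, 9.39 and 8.85 in NT, 9.88, 10.97 and 10.94 in sham, and 10.43, 9.59 and 9.43 in MSC. It had 9.55, 11.68 and 9.44 in MSCEPO and 12.19, 9.85 and 9.78 in DPSC. Sham replicates 2 and 3, MSCEPO replicate 2 and DPSC replicate 1 were its 4 highest libraries. Col4a2 had 8.90, 9.03 and 8.73 in NT, 9.24, 10.03 and 10.20 in sham, 9.66, 9.32 and 9.33 in MSC, 9.17, 10.85 and 9.12 in MSCEPO, and 11.04, 9.44 and 9.25 in DPSC, and was highest in the same 4 libraries. DPSC replicate 1 and MSCEPO replicate 2 also held the 2 highest values of Nid1, of Lama1 (laminin alpha-1, 8.92 and 9.30) and of Lama5 (8.96 and 9.55). All 12 libraries of the injected groups were above the 3 NT libraries for Col4a1 and for Col4a2, but Col4a1 did not pass in any comparison with NT (differences of 1.41, 0.63, 1.03 and 1.42 in sham, MSC, MSCEPO and DPSC, smallest limma adjusted p = 0.308). Its within-group SD, 0.921, was higher than that of 98.4% of genes. The lens and cornea list was at 3.82 in DPSC replicate 1 but at 0.26 in MSCEPO replicate 2, and its part in these values was not tested.

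The other basement membrane members did not pass in any comparison. Lama5, the alpha chain of laminins of mature vessels, differed from NT by 0.59 in sham and by 0.86 to 0.98 in the cell groups. Lamb2, the beta-2 chain found at synapses and at the inner limiting membrane, differed by 0.39 to 0.52. Agrn (agrin, a heparan sulfate proteoglycan), Lama2 (a laminin alpha chain) and Nid2 (nidogen-2) had differences between 0.01 and 0.57, Lama1 between 0.10 and 0.52, and those of Lama4 were between -0.03 and 0.06.

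**Figure D3:**
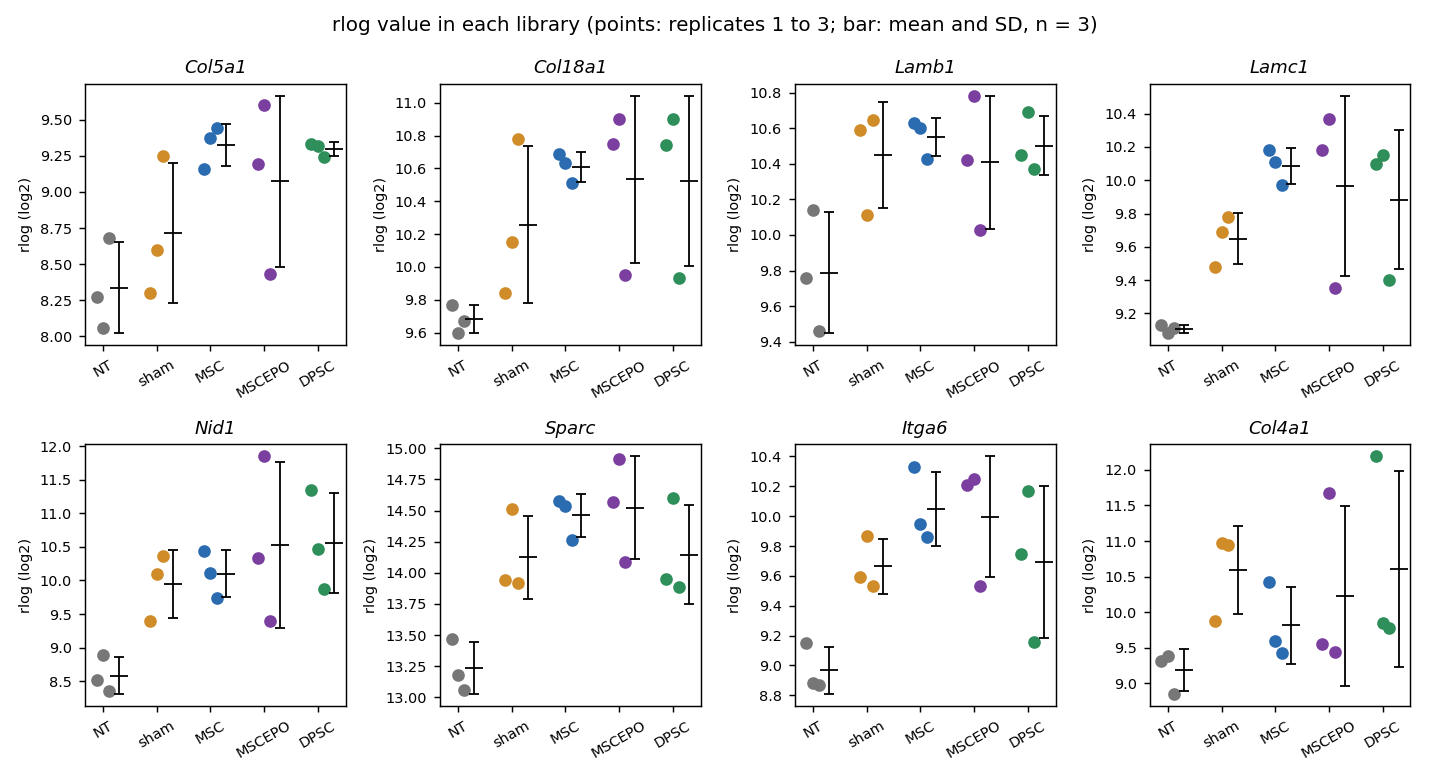
Each panel gives the rlog value of 1 gene in each library by group (points) with the group mean and SD (bar, n = 3). The first 7 genes rose in MSC or MSCEPO minus NT; Col4a1 is shown for the single high libraries of MSCEPO (11.68) and DPSC (12.19).

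Among the matrix glycoproteins, Sparc was the member with the smallest adjusted p. Sparc, or osteonectin, is a secreted collagen-binding protein made by glia and endothelium during remodelling. The rlog values were 13.47, 13.18 and 13.06 in NT and 13.94, 14.51 and 13.92 in sham. They were 14.58, 14.54 and 14.26 in MSC, 14.57, 14.91 and 14.09 in MSCEPO, and 13.95, 14.60 and 13.89 in DPSC. All 12 injected libraries lay above NT, with sham and DPSC overlapping each other. Sparc rose 2.33-fold in MSC (log2 difference 1.22 ± 0.244 SE, limma adjusted p = 0.00587) and 2.44-fold in MSCEPO (1.28 ± 0.244, adjusted p = 0.00563). Both calls held under every alternative tried, the 2-fold rule included, with adjusted p up to 0.0319. In sham the difference was 0.89 (adjusted p = 0.124) and in DPSC 0.91 (adjusted p = 0.0685). Markers of reactive glia, 6 genes, moved with Sparc: their mean was 1.52 to 1.82 above NT in sham, 2.49 to 2.82 in MSC, 1.68 to 3.11 in MSCEPO and 1.59 to 2.22 in DPSC. Macrophage and microglial markers did so too, at 0.81 to 1.56, 1.72 to 3.21, 1.67 to 2.27 and 0.85 to 1.96. The 8 endothelial markers were between 0.00 and 0.45 in these groups. In sham all 8 lay above NT without overlap, as 16.6% of all genes did. The part of these cell types in the Sparc values was not tested.

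Fibronectin (Fn1), a ligand of the alpha-5 and alpha-v integrins, and thrombospondin-1 (Thbs1), a matricellular protein that activates latent TGF-beta, split each cell group. Fn1 had 9.82, 9.09 and 9.49 in NT and 9.83, 9.73 and 9.68 in sham. It had 11.17, 11.64 and 10.34 in MSC, 11.35, 10.87 and 8.90 in MSCEPO, and 10.11, 11.23 and 8.83 in DPSC. MSC stood above all NT and sham libraries, while replicate 3 of MSCEPO and of DPSC had the lowest values of the 15. The difference of MSC from NT was 1.58 (limma adjusted p = 0.104) and from sham 1.30 (95% interval -0.05 to 2.66, adjusted p = 0.398). Thbs1 was 8.79, 9.35 and 8.35 in NT and 8.97, 9.08 and 9.15 in sham, against 11.70, 11.37 and 8.57 in MSC. MSCEPO had 11.09, 11.13 and 7.44, and DPSC had 9.61, 10.69 and 8.56. Thbs1 spanned 4.26 log2 units over the 15 libraries, and its difference of 1.72 in MSC minus NT did not pass (limma adjusted p = 0.256).

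The remaining glycoproteins had no call. Fbn1, the microfibril protein fibrillin-1, reached 11.78 in sham replicate 3 and differed from NT by 0.71 to 1.08 over the 4 groups. Thbs2 (thrombospondin-2) differed by 0.72 to 0.86. Vtn (vitronectin) and Tnc (tenascin-C, an adhesion-modulating protein) ranged between -0.03 and 0.49.

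Integrin subunits showed 1 call in each of MSC and MSCEPO, both for Itga6, the laminin-binding alpha-6 subunit. Itga6 had 9.15, 8.88 and 8.87 in NT and 9.59, 9.87 and 9.53 in sham. It had 10.33, 9.95 and 9.86 in MSC, 10.21, 10.25 and 9.53 in MSCEPO, and 9.75, 10.17 and 9.16 in DPSC. Every injected library was above the NT libraries, the lowest being DPSC replicate 3. Itga6 rose by 1.08 ± 0.246 (SE) in MSC minus NT (limma adjusted p = 0.0109) and by 1.03 ± 0.246 in MSCEPO minus NT (adjusted p = 0.0178). The MSC call held under every alternative, and the MSCEPO call was lost without NT replicate 2 or 3 or MSCEPO replicate 1 or 2, with adjusted p up to 0.0715. The difference was 0.73 in DPSC (adjusted p = 0.14) and 0.70 in sham (adjusted p = 0.246).

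The partners of alpha-6 did not pass. Itgb1, the beta-1 subunit that pairs with most matrix-binding alpha chains, had 10.79, 10.85 and 10.34 in NT and 12.49, 11.70 and 11.13 in MSC, a difference of 1.11 (limma adjusted p = 0.0546). Itgb4, the hemidesmosomal beta-4 subunit, had 6.69, 6.93 and 5.93 in NT, 6.75, 7.31 and 7.12 in sham, 8.02, 7.61 and 7.19 in MSC, 7.65, 8.63 and 6.59 in MSCEPO, and 7.19, 7.75 and 6.41 in DPSC. It differed from NT by 1.09 in MSC and 1.11 in MSCEPO (adjusted p = 0.131 and 0.147). Its highest value was in MSCEPO replicate 2, which also had the highest Lamc1, Lama5 and Nid1. Collagen-binding Itga1 was at 7.05 to 7.10 in NT, 7.43 to 7.64 in sham and 7.80 to 7.96 in MSC, groups that did not overlap, but at 8.15, 8.28 and 5.94 in MSCEPO. Fibronectin-binding Itga5 differed from NT by 0.21 to 0.48. Itgav and Itgb8, which together activate latent TGF-beta, had differences from -0.15 to 0.27 and from -0.47 to 0.01. In MSCEPO replicate 3, Itgav (8.68), Itgb8 (6.56) and Itga1 (5.94) each had the lowest value of the 15 libraries.

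The syndecans, transmembrane heparan sulfate proteoglycans that act with integrins, went separate ways. Sdc1 had 6.11, 6.55 and 6.18 in NT, 6.47, 7.75 and 7.15 in sham, 8.46, 7.49 and 6.64 in MSC, 7.15, 6.75 and 7.34 in MSCEPO, and 6.97, 7.24 and 5.88 in DPSC. MSC and MSCEPO lay above NT without overlap, and the difference of MSC was 1.25 (limma adjusted p = 0.0773). Sdc4, a component of focal adhesions, had differences from -0.21 to -0.02 and was the only member below 0 in all 4 comparisons with NT.

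Fibrillar collagens, collagen VI and the small leucine-rich proteoglycans make up fibrous connective tissue. Col5a1, which encodes a type V collagen chain that nucleates fibrils, was the only one of the 10 to be called. It had 8.27, 8.06 and 8.68 in NT, 8.30, 8.60 and 9.25 in sham, and 9.16, 9.37 and 9.44 in MSC. The MSCEPO values were 9.19, 9.60 and 8.43, and those of DPSC 9.33, 9.32 and 9.24. MSC and DPSC lay above all NT libraries, whereas sham and MSCEPO overlapped NT. Col5a1 rose by 0.98 ± 0.281 (SE) in MSC minus NT (limma adjusted p = 0.0307), a call lost without NT replicate 1 or 2 or any MSC library, and when the DPSC group was left out of the fit (adjusted p up to 0.115). DPSC minus NT was 0.96 (adjusted p = 0.0932). Its partner Col5a2 had 8.26, 7.85 and 8.30 in NT, 7.95, 8.24 and 8.40 in sham, 8.89, 8.78 and 8.56 in MSC, 8.99, 8.93 and 8.20 in MSCEPO, and 8.93, 9.22 and 8.65 in DPSC. NT and sham shared 1 range, and MSC and DPSC lay above both. The Col5a2 difference of 0.74 in DPSC minus sham (95% interval 0.26 to 1.22) was the largest of any member there, with an unadjusted limma p of 0.00544 and an adjusted p of 1.

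Col1a1 and Bgn had larger differences and wider spread. Col1a1, a chain of type I collagen, had 7.67, 8.16 and 6.48 in NT and 7.85, 8.08 and 8.85 in sham. It had 10.14, 9.21 and 8.35 in MSC, 9.54, 8.86 and 7.97 in MSCEPO, and 9.43, 9.60 and 7.86 in DPSC. MSC was above NT without overlap, and the lowest library of MSCEPO and DPSC fell within the NT range. Its MSC minus NT difference was 1.79 (limma adjusted p = 0.0573). Bgn, which encodes biglycan, had 8.81, 8.76 and 7.57 in NT, 8.81, 9.10 and 9.52 in sham, and 11.65, 10.29 and 8.88 in MSC. In MSCEPO it had 10.90, 10.56 and 8.07, and in DPSC 9.73, 10.81 and 8.07. Its MSC minus NT difference of 1.89 was the largest of any member in that comparison, and the limma adjusted p was 0.151.

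Dcn (decorin) and Lum (lumican), proteoglycans that space collagen fibrils, differed widely between libraries of 1 group. Dcn had 11.23, 11.54 and 7.65 in NT, 10.81, 10.67 and 11.28 in sham, and 11.84, 9.12 and 8.95 in MSC. It had 11.63, 11.21 and 7.95 in MSCEPO and 12.27, 12.12 and 9.24 in DPSC. The lowest and the highest library of NT, MSCEPO and DPSC thus differed by over 3 log2 units. Its within-group SD of 1.70 exceeded that of 99.7% of genes, and the limma difference from NT had 95% intervals of -2.84 to 2.49 in MSC and -1.60 to 3.73 in DPSC. Lum had 7.82, 8.37 and 5.79 in NT, 7.58, 7.19 and 8.11 in sham, 9.45, 7.68 and 6.55 in MSC, 9.16, 7.61 and 6.07 in MSCEPO, and 8.89, 9.42 and 6.67 in DPSC, with an SD of 1.32. Replicate 3 was the lowest in all of these groups but sham. Col1a2, the other type I collagen chain, had an SD of 1.25 with its lowest value, 6.10, in DPSC replicate 3. Col3a1 (type III collagen) differed from NT by 0.73 to 1.54, Col6a1 by 0.49 to 0.90 and Col6a2 by 0.62 to 1.12, with no call.

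As a list mean, fibroblast markers moved with these stromal members from library to library. The 8 fibroblast markers, led by Mgp and Prelp, averaged 0.27, 0.35 and -0.62 in NT relative to the NT mean, and 0.34, 0.48 and 1.06 in sham. The list was at 1.43, 0.82 and 0.30 in MSC, 1.24, 0.76 and 0.03 in MSCEPO, and 1.22, 1.28 and 0.05 in DPSC. The library with the lowest fibroblast list level in each of NT, MSC, MSCEPO and DPSC was replicate 3, as it was for Bgn, Col1a1 and Fbn1. Not every marker did so: Clec3b had 6.63, 6.84 and 7.10 in MSCEPO replicates 1 to 3. Of the 8 markers, 0 rose in sham, 4 in MSC, 3 in MSCEPO and 2 in DPSC minus NT, Pdgfra and Clec3b in each of the last 3. Of all genes, 0.558%, 11%, 5.83% and 1.43% rose in these comparisons. The 8 mural markers, led by Myh11 and Tagln, had 0 calls. They averaged 0.40, 0.10 and -0.50 in NT, 0.36, 0.51 and 0.75 in sham, 0.31, -0.30 and -0.20 in MSC, 0.25, 0.18 and -0.47 in MSCEPO, and 0.68, 0.41 and -0.87 in DPSC. In MSC, where the fibrillar collagens averaged 1.86, 1.11 and 0.66, the mural list was thus within the NT range. The lowest rlog value of any fibroblast marker was 4.92 (Omd), and Dcn and Lum are themselves made by fibroblasts. The part of these cells in the differences was not tested.

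**Figure D4:**
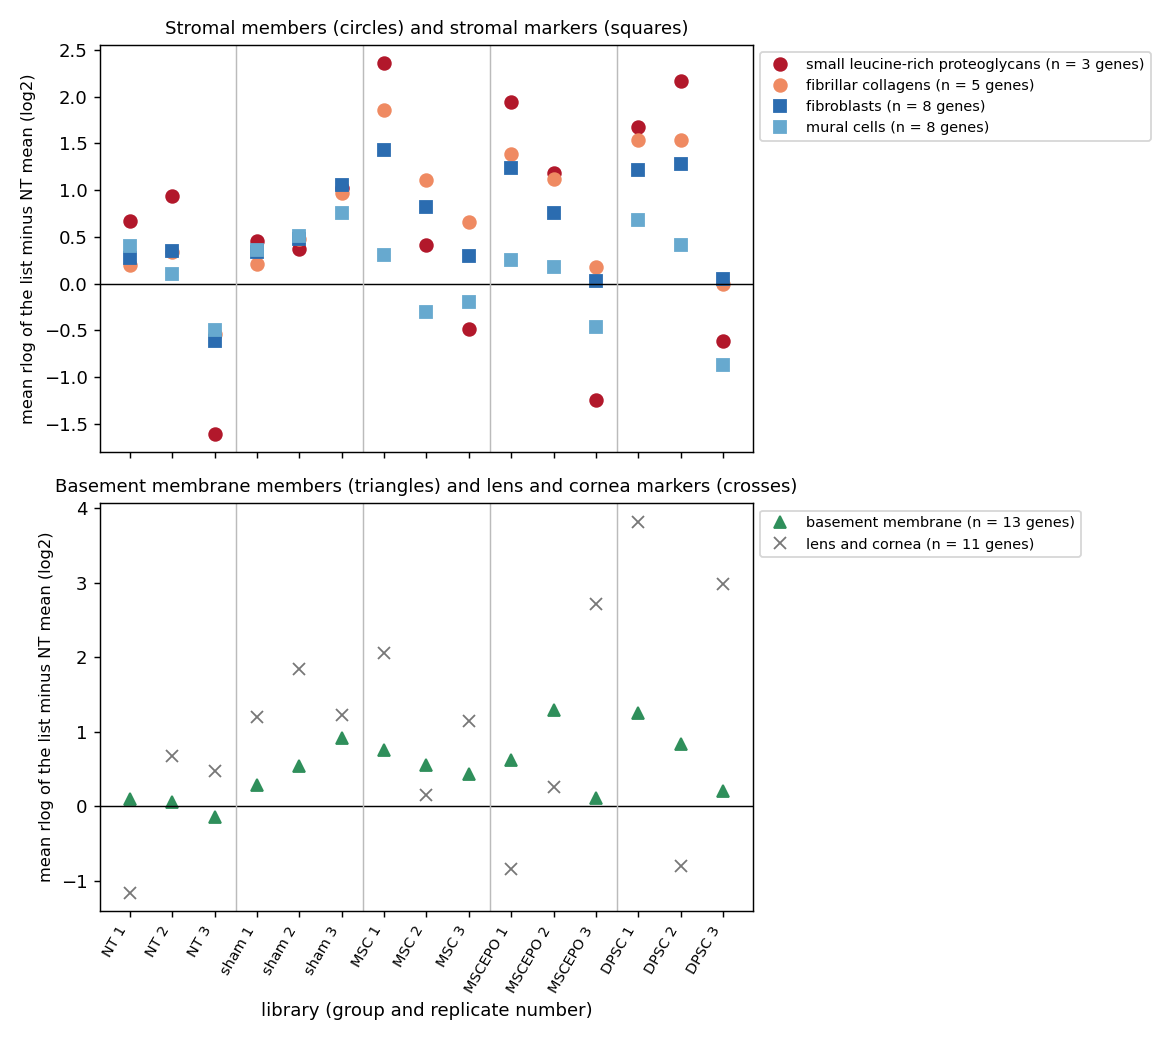
Each point is the mean rlog of a gene list in 1 library minus its NT mean (log2), with libraries by group on the horizontal axis. In the upper panel the small proteoglycans and fibrillar collagens are low in NT 3, MSCEPO 3 and DPSC 3, where the fibroblast list is at -0.62, 0.03 and 0.05; in the lower panel the lens and cornea list peaks in DPSC 1 (3.82), and the basement membrane list in MSCEPO 2 (1.29).

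The comparisons with sham ask what the cells, given together with the immunosuppressive drugs, added to vehicle and NaIO3. No member was called in MSC minus sham (0% of all genes rose and 0% fell), in MSCEPO minus sham (0% and 0.0259%) or in DPSC minus sham (0% and 0.0195%). With an unadjusted limma p under 0.05 there was 1 member in MSC and 1 in MSCEPO, Col5a2 in both, and 2 in DPSC. In the higher direction this was 2.56% of the members in each comparison, against 9.49%, 3.19% and 0.985% of all genes. The medians over the 39 members were 0.29, 0.21 and 0.12. All MSC libraries exceeded all sham libraries in 5 members (12.8%, against 13.1% of all genes), which is no more than the background. The intervals do not show equality: for Sparc the 95% interval of the limma difference was -0.19 to 0.86 in MSC, -0.13 to 0.93 in MSCEPO and -0.51 to 0.55 in DPSC. For Nid1 they ran from -0.98 to 1.27, from -0.55 to 1.70 and from -0.52 to 1.74. The largest differences from sham in MSC were Thbs1 (1.48), Fn1 (1.30) and Bgn (1.12), and in MSCEPO Thbs1 (0.82), Bgn (0.70) and Dcn (-0.66). With library weights estimated gene by gene, 6 members rose in MSC minus sham (15.4%, with 18.1% of all genes called) and 5 in MSCEPO minus sham (12.8%, with 7.16% of all genes called).

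Between the cell groups no difference passed the test in the unweighted fit of 15 libraries. MSC minus MSCEPO had 0 calls (0% of all genes rose and 0% fell), as did MSC minus DPSC (0% and 0%) and MSCEPO minus DPSC (0% and 0%), and 0 of 39 members had an unadjusted limma p under 0.05 in any of the 3. Of all genes, 2.83%, 5.78% and 0.901% had one in the higher direction. The widest differences were Fn1 at 0.68 in MSC minus MSCEPO (95% interval -0.68 to 2.03), Dcn at -1.24 in MSC minus DPSC (-3.90 to 1.43) and Dcn at -0.95 in MSCEPO minus DPSC (-3.61 to 1.72). For Sdc1 it was 0.83 in MSC minus DPSC (-0.15 to 1.82). Library weights changed the counts to 12 members in MSCEPO minus DPSC (30.8%, with 33.1% of all genes called) by the default estimate, and to 4 in MSC minus DPSC (10.3%, with 11.9% of all genes called) gene by gene.

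Of 101 further tested genes of matrix and adhesion, in 8 lists, 24 rose and 4 fell in MSC minus NT, and 18 rose and 6 fell in MSCEPO minus NT. DPSC minus NT had 4 up and 2 down, and sham minus NT 1 and 1. Of all genes, 11% rose and 6.37% fell in MSC, 5.83% and 5.81% in MSCEPO, 1.43% and 1.41% in DPSC, and 0.558% and 0.331% in sham. TGF-beta signaling, which drives matrix synthesis, held the largest number of calls of the 8 lists in MSC and MSCEPO, although leukocyte integrins had the larger share called. Of the 16 TGF-beta genes, 9 rose in MSC, 8 rose and 1 fell in MSCEPO, 2 rose in DPSC and 1 rose in sham. Ccn2, a TGF-beta-responsive matrix protein, rose in all 4 groups. Its rlog was 8.98 to 9.42 in NT, 9.82 to 10.38 in sham, 10.25 to 10.69 in MSC, 10.78 to 10.94 in MSCEPO and 10.26 to 10.60 in DPSC. The log2 differences were 0.87, 1.20, 1.60 and 1.20, with limma adjusted p-values of 0.029, 0.000988, 0.000165 and 0.0031. Ltbp3, a latent TGF-beta binding protein, rose by 0.71, 0.93 and 0.63 in MSC, MSCEPO and DPSC (limma adjusted p = 0.00418, 0.000978 and 0.0256).

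Some relatives of the members fell. Lamb3, a beta chain of epithelial laminin, had 8.84 to 9.34 in NT, 7.21 to 7.68 in sham, 6.10 to 6.25 in MSC, 5.87 to 7.42 in MSCEPO and 6.10 to 7.92 in DPSC. It fell by 2.91 in MSC, 2.64 in MSCEPO and 1.94 in DPSC on the log2 scale (limma adjusted p = 0.00156, 0.00236 and 0.0339). In the list of neural and interphotoreceptor matrix, Rbp3, the retinoid carrier secreted by photoreceptors, fell in all 4 groups, by 0.82 in sham, 1.42 in MSC, 1.68 in MSCEPO and 1.18 in DPSC. Impg1, a proteoglycan of the interphotoreceptor matrix, fell by 0.92 in MSC and 1.36 in MSCEPO (adjusted p = 0.0313 and 0.00629), and the brain proteoglycan Ncan rose by 0.73 in MSC. Photoreceptor markers fell too, 7 of 7 in MSC and in MSCEPO, 5 in DPSC and 1 in sham. Of all genes, 6.37%, 5.81%, 1.41% and 0.331% fell in these groups.

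Col16a1, a minor collagen of the 23 other collagens tested, rose by 1.22, 1.50 and 1.32 in MSC, MSCEPO and DPSC (limma adjusted p = 0.00398, 0.00134 and 0.00916). The adaptor zyxin (Zyx), which marks integrin adhesions under tension, rose by 1.02, 0.88 and 0.75 (adjusted p = 0.000603, 0.00115 and 0.00916), and 2 or 3 of the 16 adaptors rose in MSC and MSCEPO. The lysyl hydroxylases Plod2 and Plod3, which modify collagen for crosslinking, rose by 1.26 and 0.46 in MSC and by 1.31 and 0.53 in MSCEPO. The counts in this paragraph stand beside 11%, 5.83% and 1.43% of all genes that rose in MSC, MSCEPO and DPSC minus NT. Leukocyte integrins rose in 4 of 5 genes in MSC and 3 of 5 in MSCEPO, led by Itgal at 3.31 in MSC. Macrophage and microglial markers moved with them, 10 of 11 in MSC and in MSCEPO and 3 of 11 in DPSC, with list levels of 1.72 to 3.21 in MSC and 1.67 to 2.27 in MSCEPO against 0.81 to 1.56 in sham. MSC replicate 1 had the highest level of these markers (3.21) and of the 8 T and NK cell markers (3.16), and held the highest MSC value in 30 of 39 members (76.9%), where it had 45.9% of all genes. What leukocyte RNA adds to the matrix values of that library was not tested.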

How the data were processed

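RNA from 15 retinas' libraries, 3 in each of 5 groups, was sequenced, and groups were taken from the sample labels, which name no batch. The authors quantified reads with Salmon 1.1.0 against rat transcripts of Rnor_6.0, took gene sums and transformed them with DESeq2 (listed as 3.2 in the submitters' processing notes). The deposited values are log2 expression from the authors' rlog transformation, with library size taken out and noisy genes pulled to their average, which understates differences. No counts were used, and depth is unknown. The files also hold 15 columns that copy these values, with 0 values differing, and they were not used.

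The members and gene lists were chosen with earlier results of these data known. Genes with a mean rlog of at least log2(10) were fitted in limma 3.58.1 (R 4.3.3) with 5 group means and a variance trend, for 10 comparisons, each adjusted over all 15424 genes. Called means an adjusted p under 0.05; 95% intervals are from the same fit. The fit was run on simulated data with independent noise for each gene and library. It found 84 of 100 genes changed by 1.5 log2 units and 97 of 100 changed by 3, and called 9 unchanged genes. Libraries whose genes deviate together were not simulated, so the run does not measure how reliable the calls are here. Values in every library are given for members called against NT or sham and for the 3 members with the largest difference in each comparison; other members are given by ranges, and at most 3 genes per further list are named. Same-numbered libraries of MSC and MSCEPO deviated together (correlations of 0.26, 0.16 and 0.28), a pairing seen only in the data; no other pair of groups did so in all 3 numbers. Where nothing says that libraries came from separate animals, p-values measure the spread between these libraries. Alternatives were the libraries in the fit, replicate block, filter, centring, quantile normalization, library weights, trend, a 2-fold rule and each library left out. Promoter sequences are from RefSeq (GRCr8), a build other than that of the files.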

Additional observations from a re-analysis of the deposited data

How the results depend on the processing

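The median over the members kept its sign under every alternative in the 4 comparisons with NT (0.29 to 1.12) and in MSC minus sham (0.12 to 0.42). It changed sign under 1 alternative in MSCEPO minus sham (-0.04 to 0.73), 1 in DPSC minus sham (-0.04 to 0.52), 6 in MSC minus MSCEPO (-0.38 to 0.29), 6 in MSC minus DPSC (-0.23 to 0.27) and 3 in MSCEPO minus DPSC (-0.27 to 0.30). Of 180 refitted differences of called members 0 changed sign and 36 lost their call. Of 187 recomputed counts of called members, 149 stayed within 1.5 times, 28 rose by more and 10 fell by more. Here 0 against 0 was counted as unchanged. Only MSC minus NT and MSCEPO minus NT had calls in the unweighted fit of 15 libraries. Most of the 149 thus compare 0 with 0 and do not measure how stable the calls were. With a fit of only the 2 groups compared, the counts were 8 in sham minus NT, 14 in MSC minus NT, 2 in MSCEPO minus NT and 2 in DPSC minus NT, where 8.65%, 18.1%, 6.47% and 2.6% of all genes were called. With a replicate block they were 1, 10, 5 and 1, where 0.973%, 17.7%, 11.9% and 3.2% of all genes were called. The counts were 0 in the other 6 comparisons, also in MSC minus MSCEPO fitted alone with its block. Over 30 same-numbered pairs of libraries the correlations were -0.44 to 0.65, with 12 over 0.1. Among replicate 3 of NT, MSC, MSCEPO and DPSC all were positive, from 0.08 (NT and MSCEPO) to 0.65 (MSCEPO and DPSC). Sham replicate 3 went the other way, at -0.06 to -0.44 with those libraries. What the replicate 3 libraries share was not tested. The rule that adds a 2-fold difference left 2 members, Sparc and Itga6, in MSC minus NT (5.13%, with 6.7% of all genes called in either direction). Leaving out 1 library at a time gave 3 to 7 calls in MSC minus NT, where 8.75% to 17.7% of all genes were called. It gave 1 to 13 in MSCEPO minus NT (5.19% to 19.4% of all genes) and 0 to 3 in DPSC minus NT (0.648% to 2.94%). The other comparisons had 0 to 0, with at most 4.53% of all genes called.

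Array weights stopped before converging, with weights from 8.51e-05 to 15.1. Their counts were 5 in sham minus NT, 30 in MSCEPO minus NT, 23 in DPSC minus NT, 23 in MSCEPO minus sham, 4 in DPSC minus sham and 12 in MSCEPO minus DPSC, where 20.6%, 59.7%, 41.3%, 29.7%, 7.35% and 33.1% of all genes were called. Chosen after seeing the data, weights estimated gene by gene gave 5 in sham, 24 in MSC, 25 in MSCEPO and 16 in DPSC minus NT, 6 in MSC and 5 in MSCEPO minus sham, and 4 in MSC minus DPSC, where 15.4%, 49.4%, 39.3%, 23.8%, 18.1%, 7.16% and 11.9% of all genes were called. MSCEPO replicate 3 had the lowest of those weights, 0.0826. Also chosen after seeing the data, leaving out MSCEPO replicate 3 and DPSC replicate 3 together gave 3 in sham, 19 in MSC, 22 in MSCEPO and 13 in DPSC minus NT, and 1 in MSCEPO minus sham, where 3.68%, 28.1%, 21.6%, 11.5% and 0.279% of all genes were called. Leaving out NT replicate 3 as well gave 13 in MSCEPO and 7 in DPSC minus NT, where 14.1% and 6.17% were called. The cause of these changes was not tested. Depth is unknown, and with 3 libraries a group a difference under the within-group spread could not be detected.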
